A study of Mus musculus with 10 samples.

Results

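Chemokines are small secreted proteins that guide migrating cells, and the genes described here are their ligands and receptors as the table of a mouse ovary series names them. Members were all rows whose gene name is that of a CC, CXC, CX3C or XC chemokine, of a receptor of these families or of an atypical chemokine receptor of the Ackr series. The rule matched 68 of 55487 rows, with 62 distinct symbols. They were 46 ligand rows, 18 receptor rows and 4 atypical receptor rows. After a filter on low counts, 45 of the 68 stayed among the 18956 rows that were tested, namely 29 ligands, 12 receptors and 4 atypical receptors.

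The series holds bulk RNA-seq of 10 mouse ovaries on a C57BL/6J background. The Control group was 4 ovaries of mice aged 8 weeks, the Aged group 3 ovaries of mice aged 11 months and the Aged+CF group 3 ovaries of mice aged 11 months that were given CEFFE, a cell-free extract of fat tissue. The dose was 200 μL at 3 μg/μL protein, which the study's methods say was given repeatedly through the tail vein while Control and Aged mice received saline. All groups, Control included, had been injected with 10 IU of PMSG, a gonadotropin that stimulates follicle growth, 48 h before the ovaries were taken. The series asks how ovaries of old mice differ from those of young mice, and how old ovaries given CEFFE differ from untreated old ones. Each ovary is named below by its group and the number in its label.

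Most chemokines attract white blood cells through receptors coupled to G proteins, and the pattern of receptors on a leukocyte decides which ligands it follows. Atypical receptors bind chemokines without the usual G protein signal and take them up or carry them. In the ovary, leukocytes enter around ovulation and during corpus luteum formation, and macrophages reside in it throughout life.

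The ovaries had between 15761789 and 21318254 counts each. Values are given as CPM, which are counts relative to a library size scaled by edgeR’s TMM factors, and levels are compared between genes only as FPKM, which divides by gene length. The Aged ovaries were the least alike, with a median correlation to their group of 0.956 for Aged 31, 0.944 for Aged 33 and 0.933 for Aged 34, against 0.975 to 0.976 in Control and 0.977 to 0.98 in Aged+CF. Aged 33 had the lowest TMM factor, at 0.871, and the fewest genes with a count, at 25684. Aged 34 held the highest sums of B cell, T cell and dendritic cell markers. Markers of oviduct epithelium (Ovgp1 and Foxj1) summed to 334 CPM in Control 33 and 278 CPM in Aged 34, against 1.55 to 31.5 CPM in the other ovaries. Oocyte markers (Gdf9, Bmp15 and Zp3), which show that ovary was sampled, summed to between 169 and 231 CPM in Control, 5.07 and 47.1 CPM in Aged and 60.8 and 94.3 CPM in Aged+CF. In such whole-organ samples, fewer cells of a type and less RNA per cell cannot be told apart.

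Per length, Ccl21 and Cxcl14 were by far the highest ligands in all groups. The Ccl21a row ENSMUSG00000095320 had a mean of 89.9 FPKM over the 10 ovaries, Cxcl14 had 86.3 FPKM and the Ccl21b row ENSMUSG00000096271 had 71.2 FPKM. Ccl21 draws dendritic cells and naive T cells through Ccr7, and Cxcl14 is a ligand made by epithelia and stroma. Cxcl12, the ligand of Cxcr4 and Ackr3, followed at 6.39 FPKM and Ccl6, a ligand of myeloid cells, at 6.05 FPKM. The highest receptor rows were Ackr3 at 5.62 FPKM, the scavenger of Cxcl12, and Cxcr4 at 5.35 FPKM. After them came Cx3cr1, the receptor of monocytes and macrophages for the membrane-bound ligand Cx3cl1, at 1.86 FPKM, Ccr10 at 1.56 FPKM and Cxcr3, found on activated T cells and NK cells, at 1.42 FPKM.

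**Figure D1:**
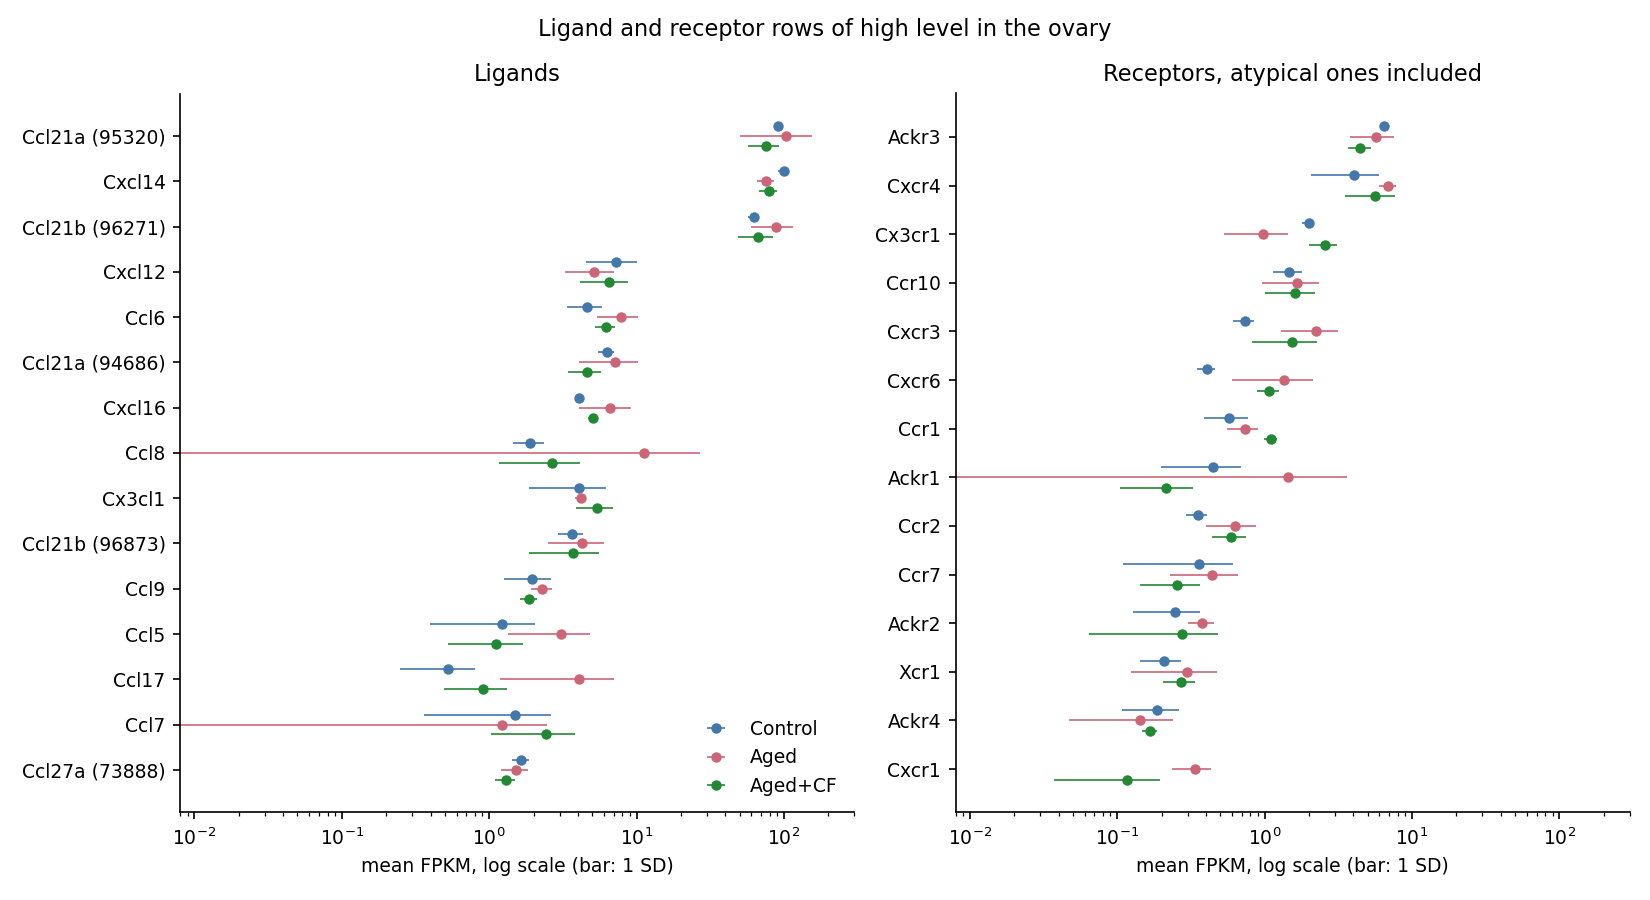
Mean FPKM in each group, on a log axis, of 15 ligand rows and 14 receptor rows of high level; bars are 1 SD over 4 Control, 3 Aged and 3 Aged+CF ovaries, and a bar that runs to the left edge has an SD at or above its mean. Rows that share a symbol carry the last digits of their identifier, Cxcr1 in Control is at 0 and so has no point, and Ccl21a, Cxcl14 and Ccl21b stand above all other members.

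Summed over all 68 rows, the members took 553 ± 24.5 CPM in Control (SD, n = 4), 603 ± 110 CPM in Aged (SD, n = 3) and 537 ± 56.3 CPM in Aged+CF (SD, n = 3). The ligand rows alone summed to 480 ± 21.8, 509 ± 97.7 and 451 ± 47.8 CPM, with overlapping groups. The 22 receptor rows, atypical ones included, summed to between 68.3 and 77.9 CPM in Control, 80.2 and 107 CPM in Aged and 80.7 and 96.3 CPM in Aged+CF. For the receptors both older groups therefore lay above every Control ovary.

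Of the 23 rows that did not pass the filter, 3 had no count in any ovary: Ccl20, Ccl26 and the Ccl19 row ENSMUSG00000094661. The others were Ccl1, Ccl24, Cxcl2, Cxcl3, Cxcl5, Cxcl11, Cxcl13, Cxcl15, Cxcl17, Xcl1, Ccr3, Ccr4, Ccr6, Ccr8, Cxcr2, Cxcr5, the Ccl21b row ENSMUSG00000095675, Ccl21c, Ccl21d and the Ccl27a row ENSMUSG00000093828. None of the 23 had over 139 counts summed over the 10 ovaries. At this depth a count of 0 allows up to 3 counts, which is between 0.141 and 0.212 CPM in single ovaries, and such limits cover counting error only.

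With age, the members that moved past the study's stated threshold did so upward, and 4 of these 8 were receptors. At a fold of at least 1.5 and an adjusted p under 0.05 (edgeR quasi-likelihood F test, Benjamini-Hochberg adjustment over all genes tested), 8 of 45 members rose in Aged against Control, which is 17.8%, beside 11.1% of all genes called and 5.0% called higher. The receptors were Cxcr1, Cxcr3, Cxcr6 and Ccr2 and the ligands Cxcl16, Ccl17, Ccl6 and Ccl28. Cxcr1 and Ccl17 reached the filter's level, 0.575 CPM in at least 3 ovaries, only through the Aged ovaries, in which they are high, so that their calls and their part in the count are a description. The other 6 called members passed the filter without the Aged ovaries. In this fit 0 members fell, beside 6.06% of all genes, while 2 fell at the unadjusted p and 1, Cx3cr1, by DESeq2. The share of all genes called lower by DESeq2 is not given here. The median log2 fold change was 0.42 over the 45 members and -0.00053 over all genes tested. By role it was 0.77 over 12 receptors, 0.31 over 29 ligands and 0.35 over 4 atypical receptors.

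Cxcr6 lies on chromosome 9 (GRCm38, 123806475 to 123811760) and is a receptor of activated T cells and NK T cells whose ligand is Cxcl16. It had 1.63, 1.37, 1.27 and 1.70 CPM in Control 31, 32, 33 and 34. In Aged 31, 33 and 34 it had 4.12, 3.53 and 8.49 CPM, and in Aged+CF 30, 32 and 34 it had 4.19, 3.33 and 4.64 CPM. All 6 older ovaries lay above all 4 young ones, and the Aged and Aged+CF ovaries overlapped. In Aged against Control the log2 fold change was 1.85 ± 0.32 (SE; adjusted p = 0.0083, edgeR). Its ligand Cxcl16, which is also a scavenger receptor in its membrane-bound form, had between 17.7 and 18.4 CPM in the 4 Control ovaries and 23.6, 27.9 and 43.6 CPM in Aged 31, 33 and 34. Ligand and receptor thus both stood higher, Cxcl16 by a log2 fold change of 0.82 ± 0.19 (SE; adjusted p = 0.019, edgeR), with 20.9 to 25.1 CPM in Aged+CF. Fyco1 overlaps Cxcr6 and Zmynd15 overlaps Cxcl16, each on the other strand, so that counts made without strand may hold reads of either gene.

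Cxcr3 (chromosome X, 101731535 to 101734269) binds the interferon-induced ligands Cxcl9, Cxcl10 and Cxcl11. In the 4 Control ovaries it had between 0.963 and 1.43 CPM, in Aged 31, 33 and 34 it had 3.58, 2.82 and 5.62 CPM, and in Aged+CF 30, 32 and 34 it had 1.78, 2.07 and 4.08 CPM. Again no older ovary reached down to the young range, and the log2 fold change in Aged against Control was 1.71 ± 0.36 (SE; adjusted p = 0.015, edgeR). Its ligands did not pass the test in any comparison. Cxcl10 had 2.28 to 5.49 CPM in Control and 3.10 to 6.23 CPM in Aged, with a log2 fold change of 0.27 ± 0.37 (SE), and Cxcl9 had one of 0.22 ± 0.83 (SE), with 7.18 CPM in Control 31 and at most 1.37 CPM in the other Control ovaries. Cxcl11 had too few counts to be tested.

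Ccr2, the receptor by which inflammatory monocytes leave the marrow and enter tissue, had 4.67, 4.30, 5.98 and 4.61 CPM in Control 31 to 34 and 10.2, 6.28 and 12.1 CPM in Aged 31, 33 and 34. The groups did not overlap, although Aged 33 lay close to Control 33. The log2 fold change was 0.96 ± 0.25 (SE; adjusted p = 0.031, edgeR). Its ligands Ccl2, Ccl7 and Ccl12 gave log2 fold changes of -0.41 ± 0.81, -0.20 ± 0.81 and 0.19 ± 0.57 (SE), none past the test, so the receptor stood higher and its ligands varied too widely for a difference to be shown.

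Cxcr1, a receptor of neutrophils for ELR-bearing CXC ligands, had 0 counts in all 4 Control ovaries, 13, 11 and 21 counts in Aged 31, 33 and 34 and 9, 4 and 3 counts in Aged+CF 30, 32 and 34. Against a floor of 3 counts over the Control group its mean CPM was at least 21.6-fold higher in Aged and at least 7.07-fold higher in Aged+CF. Fitted with no filter on low counts, Cxcr1 had an adjusted p of 0.0078 (edgeR) in Aged against Control. Only a low level was reached in any ovary, at most 1.16 CPM. The neutrophil markers S100a8, S100a9 and Ly6g, which define that cell type, did not pass the filter, and Ly6g had no count in any Aged or Aged+CF ovary. Csf3r, the other neutrophil marker, gave a log2 fold change of 0.79 (adjusted p = 0.11, edgeR). The ELR ligands of the list were hardly present: of Cxcl1, Cxcl2, Cxcl3, Cxcl5 and Cxcl15, only Cxcl1 passed the filter. Cxcl1 had 1.52 to 3.76 CPM in Control and 0.635 to 1.49 CPM in Aged, with no overlap, and fell at the unadjusted p only, by 1.22 ± 0.45 on the log2 scale (SE; adjusted p = 0.095, edgeR).

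Among the CC ligands, Ccl17 moved farthest. This ligand of Ccr4, made by dendritic cells, had 1, 5, 7 and 6 counts in Control 31 to 34, 33, 60 and 13 counts in Aged 31, 33 and 34, and 5, 7 and 15 counts in Aged+CF 30, 32 and 34. In CPM the 3 Aged ovaries lay above all others, though Aged 34, at 0.717 CPM, was next to Aged+CF 34, at 0.703 CPM. The log2 fold change in Aged against Control was 3.09 ± 0.65 (SE), and with no filter on low counts it was 3.10 with an adjusted p of 0.021 (edgeR). Here Aged 33 and not Aged 34 was the highest ovary. Its receptor Ccr4 had too few counts to be tested.

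Ccl6 had 7.88, 10.3, 12.2 and 14.8 CPM in Control 31 to 34 and 17.8, 17.9 and 27.0 CPM in Aged 31, 33 and 34, without overlap, and a log2 fold change of 0.89 ± 0.23 (SE; adjusted p = 0.031, edgeR). Ccl28, a mucosal ligand of Ccr10 and Ccr3, had 0.700, 0.561, 3.80 and 0.795 CPM in Control 31 to 34 and 9.90, 7.76 and 3.42 CPM in Aged 31, 33 and 34. The groups overlapped through Control 33, and the adjusted p was just under the threshold, with a log2 fold change of 2.24 ± 0.67 (SE; adjusted p = 0.049, edgeR). Control 33 was also the young ovary with 334 CPM of oviduct markers, while Aged 31 and 33, the highest in Ccl28, had 2.27 and 1.55 CPM of them, and the part of oviduct tissue in the Ccl28 values was not tested beyond these sums.

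**Figure D2:**
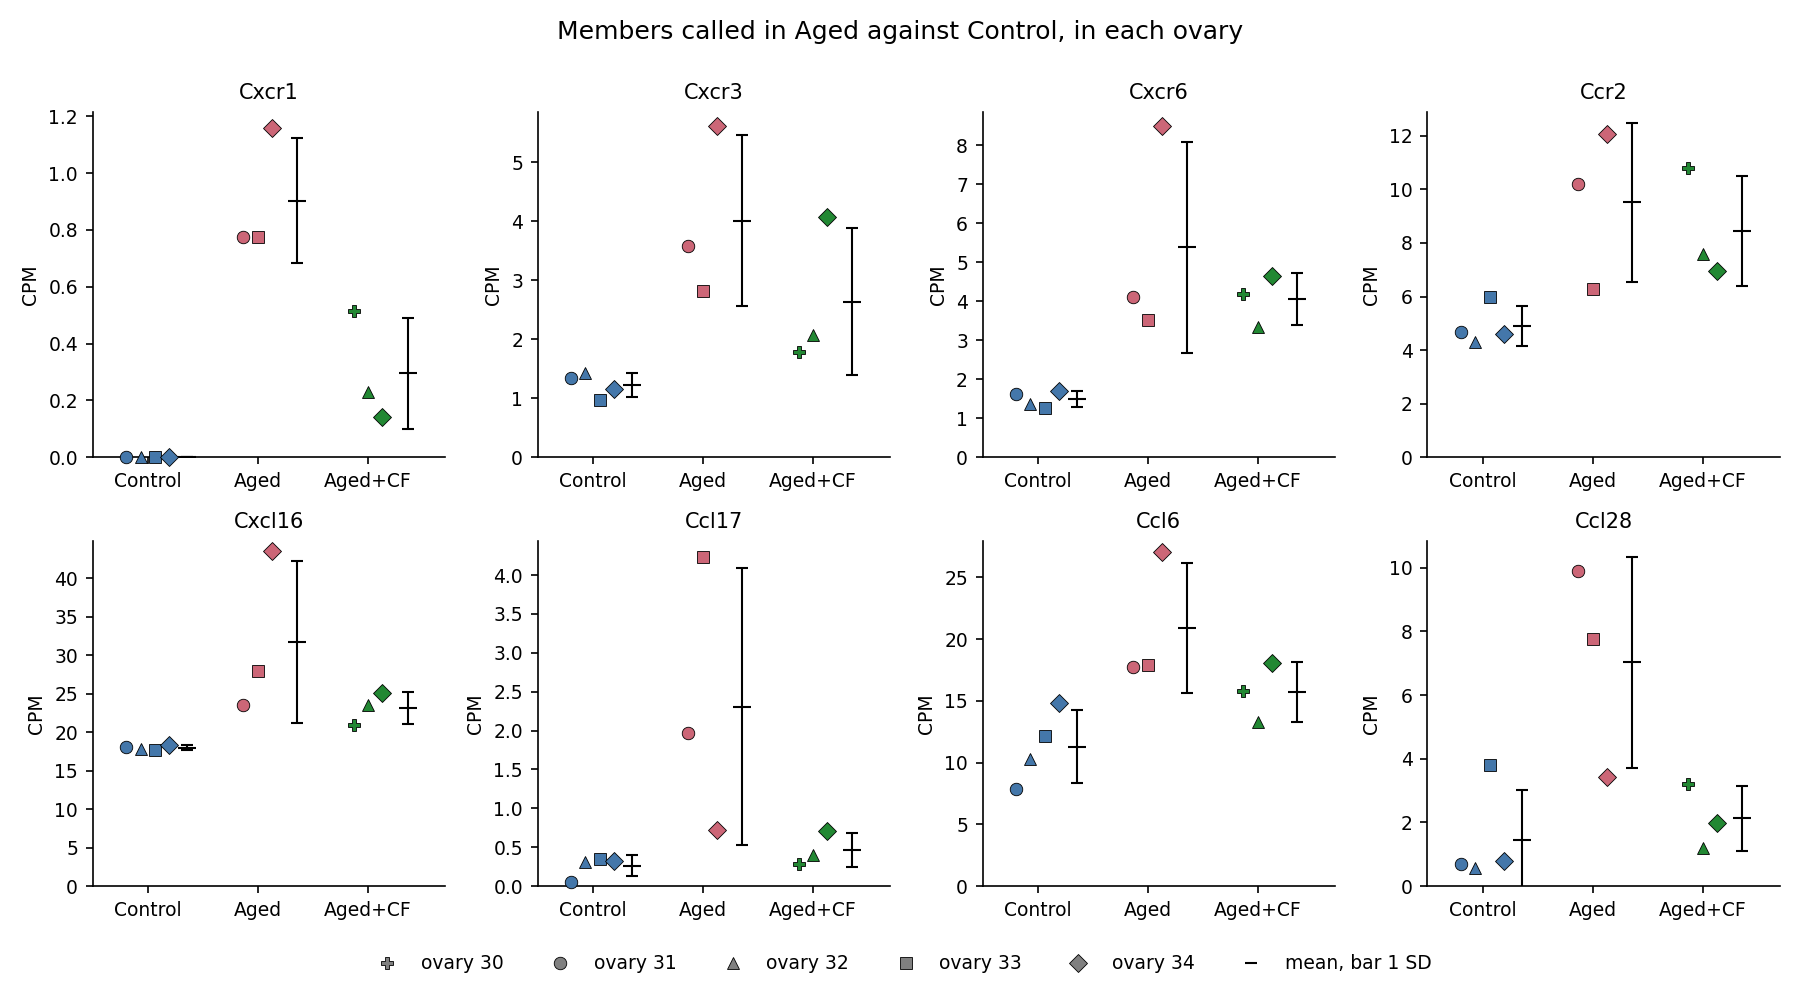
CPM of the 8 members called in Aged against Control, a point for each ovary with its number as the symbol, beside the mean and 1 SD (Control n = 4, Aged n = 3, Aged+CF n = 3; a lower bar end under 0 is not drawn). Ccl28 overlaps between Aged and Control through Control 33, and the other panels show no such overlap. The share of all genes without overlap was not computed. The members were chosen by their call in these same ovaries, so this separation follows in part from the choice and is a description.

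A looser call shows more members on the same side. At a fold of at least 1.5 and an unadjusted p under 0.05, 17 of 45 members (37.8%) were called in Aged against Control, beside 18.2% of all genes. Of these, 15 (33.3%) were higher, beside 8.79% of all genes, and 2 (4.44%) were lower, beside 9.44%. The 7 further members on the higher side were Ccl19, Ccl5, Ccl8, Ccr9, Cxcr4, the Ccl21b row ENSMUSG00000096271 and the Ccl27a row ENSMUSG00000095247. Without Aged 34 the count was 10 and not 17. The share of all genes called in that fit is not given here, so this cannot be told from a change among all genes.

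Cx3cr1 was the one receptor called lower. It had 16.3, 13.3, 15.3 and 14.7 CPM in Control 31 to 34, 5.37, 13.4 and 5.96 CPM in Aged 31, 33 and 34, and 18.7, 15.9 and 24.3 CPM in Aged+CF 30, 32 and 34. Aged 31 and 34 lay far below every other ovary, whereas Aged 33 was level with the lowest Control ovary. The log2 fold change in Aged against Control was -0.86 ± 0.30 (SE; adjusted p = 0.081, edgeR). It was -1.37 without Aged 33, a fit that leaves out the Aged ovary nearest to Control and is a description. The macrophage markers as a sum did not follow Cx3cr1, with 199 to 228 CPM in Control and 265, 255 and 433 CPM in Aged 31, 33 and 34. The Cx3cr1 gene model is long and overlaps Csrnp1, Gorasp1 and Xirp1 on the same strand, so its counts could hold reads of these genes. Its ligand Cx3cl1 had 24.4 to 26.4 CPM in 3 Control ovaries, 3.79 CPM in Control 31 and 21.7 to 23.2 CPM in Aged, with a log2 fold change of 0.17 ± 0.50 (SE).

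Cxcr4, the receptor of Cxcl12, had 7.76, 18.5, 7.35 and 8.80 CPM in Control 31 to 34 and 17.0, 20.9 and 21.2 CPM in Aged 31, 33 and 34. Control 32 alone reached the Aged range, and the log2 fold change was 0.90 ± 0.34 (SE; adjusted p = 0.10, edgeR). Without Control 32 the adjusted p of Cxcr4 was 0.028 (edgeR). That fit leaves out the Control ovary that overlapped and is a description. The ligand Cxcl12 had 65.7 to 141 CPM in Control and 44.6 to 82.4 CPM in Aged (log2 fold change -0.39 ± 0.33, SE). The decoy receptor Ackr3 had 21 to 23.1 CPM in Control and 15 to 31 CPM in Aged (log2 fold change -0.04 ± 0.23, SE), so neither of them passed the test.

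Ccl5, a T cell and NK cell product that binds Ccr1 among other receptors, had 2.68, 1.68, 0.71 and 0.636 CPM in Control 31 to 34 and 3.10, 2.33 and 6.01 CPM in Aged 31, 33 and 34. The groups overlapped between Control 31 and Aged 33, and the log2 fold change was 1.43 ± 0.57 (SE; adjusted p = 0.12, edgeR). Ccr9, a gut-homing receptor of thymocytes and T cells, gave 0.92 ± 0.40 (SE; adjusted p = 0.14, edgeR) from 0.627 ± 0.251 CPM in Control (SD, n = 4) and 1.21 ± 0.428 CPM in Aged (SD, n = 3), and its gene model overlaps several others on both strands.

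A group of members was highest in 1 ovary, Aged 34. Ccl8, a monocyte-attracting ligand, had 23 and 12 counts in Aged 31 and 33 and 274 counts in Aged 34. Ackr1, the atypical receptor of venules and red blood cells that binds many inflammatory chemokines, had 8 and 6 counts in Aged 31 and 33 and 175 in Aged 34. Its counts may include reads of Cadm3, which overlaps it on the same strand. Cxcl13, which draws B cells, had 23, 0 and 97 counts in Aged 31, 33 and 34. With 1 or 2 counts of it in each Control ovary, Aged 31 stood above Control too. Its receptor Cxcr5 had 4, 3 and 35 counts in Aged 31, 33 and 34, and neither passed the filter. For Ccl8 the log2 fold change in Aged against Control was 2.62 ± 0.87 (SE; adjusted p = 0.069, edgeR) and, without Aged 34, 0.28 with an adjusted p of 0.71. The median over the 4 B cell markers was 2.32 in log2 fold change, and their sum was 25.3 CPM in Aged 34, 6.38 and 5.43 CPM in Aged 31 and 33 and 2.44 to 2.92 CPM in Control. T cell markers summed to 30.8 CPM in Aged 34, 11.9 and 10.3 CPM in Aged 31 and 33 and 4.87 to 7.35 CPM in Control, and 3 of the 4 tested (Cd3d, Cd3e and Cd3g) passed the adjusted test. Dendritic cell markers summed to 72.4 CPM in Aged 34, 29.4 and 22.9 CPM in Aged 31 and 33 and 12.8 to 16.0 CPM in Control. Of these markers only Itgax passed the adjusted test, with a log2 fold change of 2.38 (adjusted p = 0.0074, edgeR). Flt3 and Clec9a overlapped between the groups, with 0.81 and 0.38 (adjusted p = 0.45 and 0.34, edgeR). Endothelial markers (Pecam1, Cdh5, Tek and Kdr) summed to 274 to 350 CPM in Control, 393 CPM in Aged 34 and 466 and 504 CPM in Aged 31 and 33, and 3 of the 4 passed the adjusted test as higher. NK cell markers summed to 1.72 to 3.79 CPM in Control, 3.76 to 5.86 CPM in Aged and 2.01 to 4.12 CPM in Aged+CF.

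Some marker sums of ovarian cells did not overlap between Control and Aged either. Theca markers (Cyp17a1, Cyp11a1 and Lhcgr), which luteal cells share in part, summed to between 2570.3 and 5832 CPM in Control, 8799.9 and 15672 CPM in Aged and 5618 and 8144 CPM in Aged+CF. Most of this sum was Cyp11a1, at 3637 CPM on average in Control and 10073 CPM in Aged. Cyp17a1 overlapped, with 53.0 to 297 CPM in Control and 16.9, 146 and 504 CPM in Aged 31, 33 and 34. Its log2 fold change was 0.43 (adjusted p = 0.81, edgeR). Lhcgr, the receptor of luteinizing hormone, gave a log2 fold change of 1.80 in Aged against Control (adjusted p = 0.013, edgeR) and -2.07 in Aged+CF against Aged (adjusted p = 0.15, edgeR). Granulosa markers (Foxl2, Amh, Fshr and Cyp19a1) summed to between 799 and 1542 CPM in Control, 365 and 538 CPM in Aged and 447 and 509 CPM in Aged+CF. None of them passed the adjusted test in Aged against Control. Amh averaged 499 CPM in Control and 75.0 CPM in Aged. Foxl2 gave a log2 fold change of -0.26 (adjusted p = 0.17, edgeR), and Cyp19a1 overlapped between these groups. The sums of stroma, lymphatic endothelial and adipocyte markers overlapped between Control and Aged. The part of any of these cells in the members' values was not tested.

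**Figure D3:**
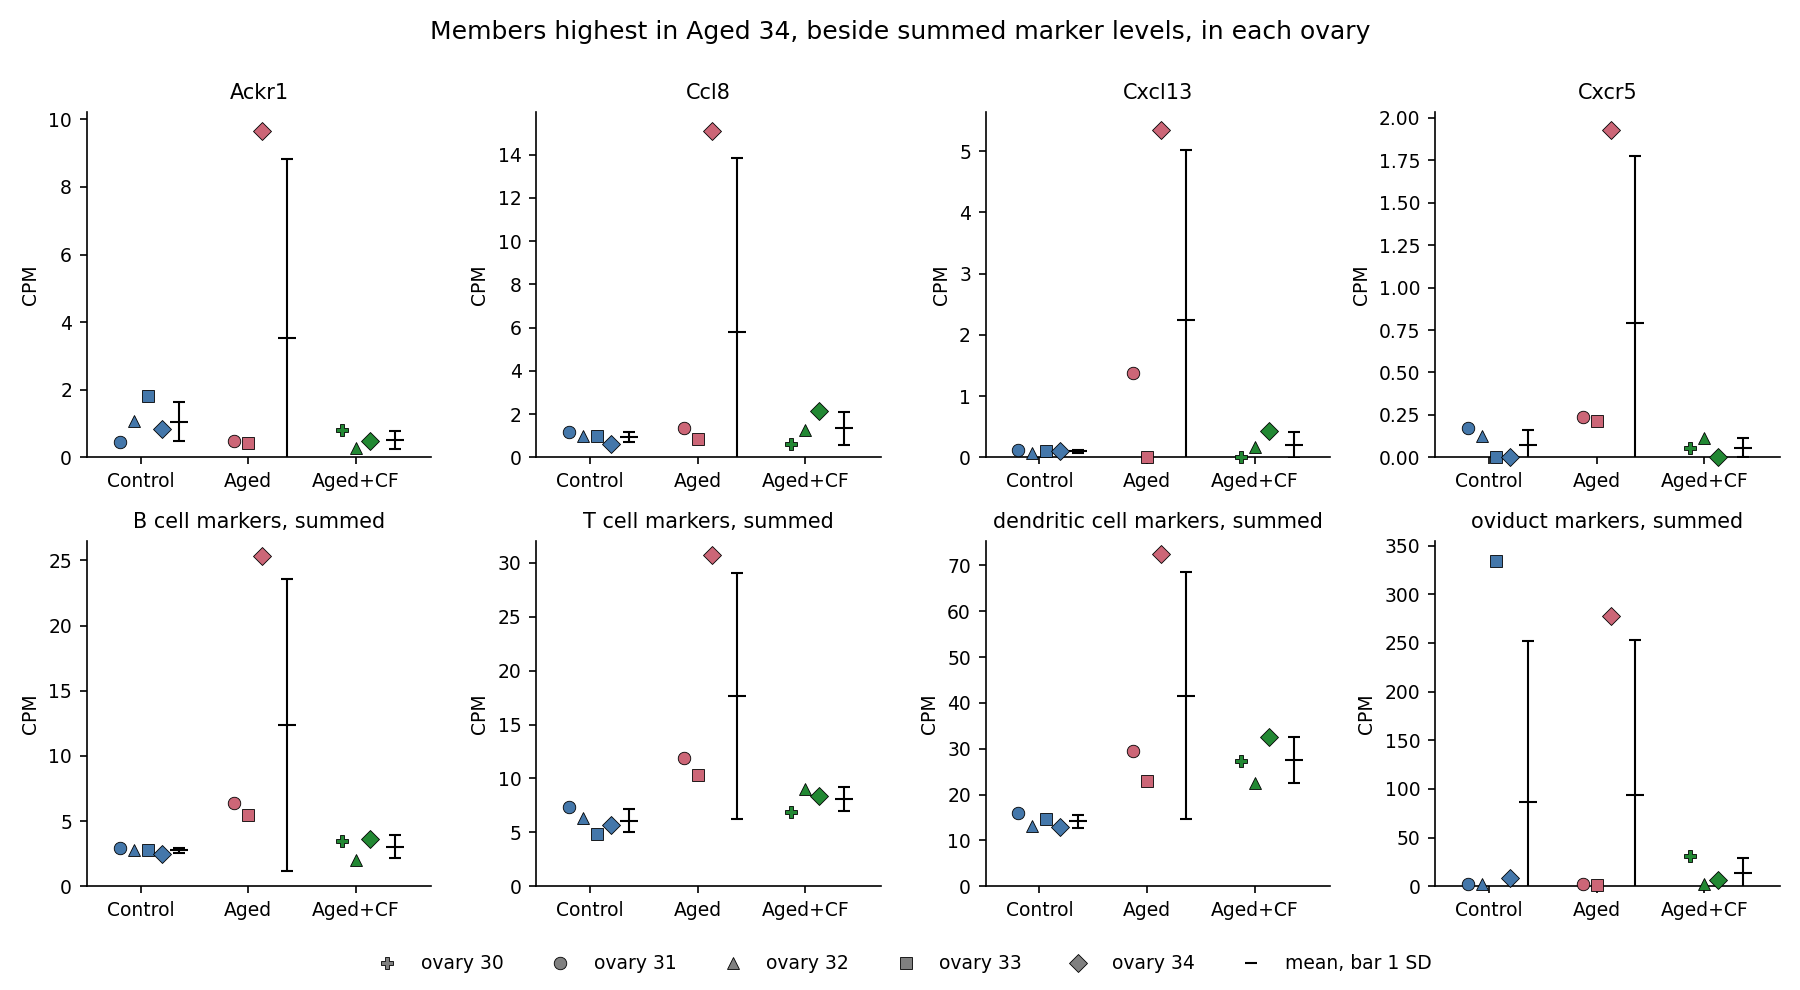
CPM in each ovary of Ackr1, Ccl8, Cxcl13 and Cxcr5 and, below, of the summed markers of B cells, T cells, dendritic cells and oviduct epithelium, with the mean and 1 SD beside the points (Control n = 4, Aged n = 3, Aged+CF n = 3; a lower bar end under 0 is not drawn). Aged 34 is the highest ovary in 7 of the 8 panels, and Control 33 is the highest in oviduct markers.

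The log2 fold changes of all 8 called members stayed above 0 without Aged 34. In that fit 5 members were called in Aged against Control, and these were Cxcr1, Cxcr3, Cxcr6, Ccl17 and Ccl28. The share of all genes called in it is not given here. Over all 10 fits that each left out 1 ovary, Cxcr3 kept an adjusted p of at most 0.045 and Cxcr6 of at most 0.030. Ccl6, Ccr2, Cxcl16 and Ccl28 lost the call in some of them, with log2 fold changes that stayed between 0.70 and 1.05, 0.79 and 1.21, 0.55 and 1.02, and 1.94 and 3.34. The spread between ovaries was larger in Aged than in the other groups, with a common biological coefficient of variation of 0.377, against 0.209 in Control and 0.193 in Aged+CF.

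The promoters of called receptors are shown as RefSeq gives them, because Cxcr3, Cxcr6 and Ccr2 stood above Control in both older groups. Cxcr1 did as well, from a few counts an ovary, and its window, which is not printed, held none of the motifs searched. Each runs from 250 bases before to 50 bases after a start site on GRCm38.p6, at chrX:101734098-101734397 on the minus strand for Cxcr3, chr9:123806227-123806526 on the plus strand for Cxcr6 and chr9:124101933-124102232 on the plus strand for Ccr2, written 5′ to 3′ with matches of the searched motifs in capitals.
Cxcr3: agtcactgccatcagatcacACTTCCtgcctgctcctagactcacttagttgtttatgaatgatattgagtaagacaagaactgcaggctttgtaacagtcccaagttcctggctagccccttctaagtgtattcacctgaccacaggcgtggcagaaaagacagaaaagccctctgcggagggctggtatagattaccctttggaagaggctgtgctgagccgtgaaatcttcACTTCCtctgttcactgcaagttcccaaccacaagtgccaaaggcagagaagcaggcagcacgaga
Cxcr6: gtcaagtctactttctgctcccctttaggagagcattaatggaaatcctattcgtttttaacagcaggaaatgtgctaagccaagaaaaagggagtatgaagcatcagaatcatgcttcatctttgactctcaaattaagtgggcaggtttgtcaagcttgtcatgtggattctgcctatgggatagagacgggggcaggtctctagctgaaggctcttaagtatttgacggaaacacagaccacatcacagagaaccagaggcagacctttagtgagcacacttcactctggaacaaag
Ccr2: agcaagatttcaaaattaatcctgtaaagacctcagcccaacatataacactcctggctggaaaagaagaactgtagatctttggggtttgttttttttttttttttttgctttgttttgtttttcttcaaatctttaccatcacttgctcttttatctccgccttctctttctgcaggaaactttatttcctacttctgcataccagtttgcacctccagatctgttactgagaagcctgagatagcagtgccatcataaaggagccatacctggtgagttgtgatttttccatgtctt
Motifs of NF-κB, the core of the ISRE of interferon response and the ETS core GGAAGT were searched on both strands, and matches may overlap. The Cxcr3 window held 2 matches of the ETS core, both on the other strand, while those of Cxcr6 and Ccr2 held none of the 3 motifs. Of 32851 RefSeq promoters of that length, 23.8% held the ETS core, 8.46% the NF-κB motif and 3.44% the ISRE core. Of 53 member promoters, which cover 46 of the 62 symbols, 20 (37.7%), 12 (22.6%) and 3 (5.66%) did. Among 7 called members with a window, Cxcr3, Ccl6 and Ccl28 had the ETS core and none had a match of the other 2.

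With CEFFE, most of the members that moved were lower than in Aged, and Cx3cr1 was higher. At a fold of at least 1.5 and an unadjusted p under 0.05, the threshold that the study's results text used, 8 of 45 members (17.8%) were called in Aged+CF against Aged, beside 7.96% of all genes. Lower were 7 (15.6%, beside 4.05% of all genes), namely Ackr1, Ccl17, Ccl8, Ccl28, Cxcr1, Ccl5 and the Ccl21a row ENSMUSG00000094686. Higher was 1 (2.22%, beside 3.91%), Cx3cr1. Here too the calls of Ccl17 and Cxcr1 are a description, since these members passed the filter only through the Aged ovaries. At the adjusted p, edgeR called 0 members, beside 0.00528% of all genes, which was 1 gene. DESeq2 called 1 member, Cx3cr1, and its share of all genes is not given here. The median log2 fold change was -0.38 over the 45 members and -0.02 over all genes tested. This comparison and the one before share the 3 Aged ovaries, so the values of a member in them are not independent of each other.

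Cx3cr1 had the lowest p of the members here, with every Aged+CF ovary, at 15.9 CPM or more, above every Aged ovary, at 13.4 CPM or less. The log2 fold change was 1.26 ± 0.32 (SE; unadjusted p = 0.0028, adjusted p = 0.17, edgeR), and it lay between 1.01 and 1.79 when ovaries were left out one at a time. With single ovaries left out, Cx3cr1 was called at the adjusted p only without Aged 33, the Aged ovary nearest to Aged+CF. Its ligand Cx3cl1 had 22.3, 36.2 and 23.2 CPM in Aged+CF 30, 32 and 34 and a log2 fold change of 0.28 ± 0.53 (SE).

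Ccl17 gave a log2 fold change of -2.26 ± 0.67 (SE; unadjusted p = 0.0072, adjusted p = 0.18, edgeR). These values are a description, since Ccl17 passed the filter only through the Aged ovaries. Among fits with single ovaries left out, it was called at the adjusted p only without Aged 34, its lowest Aged ovary. Ccl28 had 3.21, 1.21 and 1.97 CPM in Aged+CF 30, 32 and 34, all below the 3 Aged ovaries, although Aged+CF 30 lay close to Aged 34. Its log2 fold change was -1.72 ± 0.72 (SE; unadjusted p = 0.038, adjusted p = 0.28, edgeR). Ccl5 had 0.573, 1.44 and 1.97 CPM in Aged+CF 30, 32 and 34, again without overlap, with a log2 fold change of -1.51 ± 0.63 (SE; unadjusted p = 0.036, adjusted p = 0.28, edgeR). Cxcr1 gave -1.62 ± 0.54 (SE; unadjusted p = 0.019, adjusted p = 0.23, edgeR).

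The lower values of Ackr1 and Ccl8 in Aged+CF rested on 1 ovary, Aged 34. Ackr1 had 0.803, 0.287 and 0.469 CPM in Aged+CF 30, 32 and 34, and Aged 31 and 33 had 0.477 and 0.423 CPM, so that only Aged 34, at 9.65 CPM, stood apart. Its log2 fold change was -2.76 ± 1.11 (SE; unadjusted p = 0.033, adjusted p = 0.27, edgeR) with that ovary and 0.18 without it. For Ccl8 it was -2.09 ± 0.93 (SE; unadjusted p = 0.049, adjusted p = 0.31, edgeR) with Aged 34 and 0.27 without it, from 0.631, 1.26 and 2.16 CPM in Aged+CF 30, 32 and 34. B cell, T cell and dendritic cell markers summed to 2.01 to 3.61, 6.88 to 9.02 and 22.5 to 32.5 CPM in Aged+CF, and all 4 B cell markers and 3 of the 4 tested T cell markers passed the unadjusted test as lower than in Aged.

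**Figure D4:**
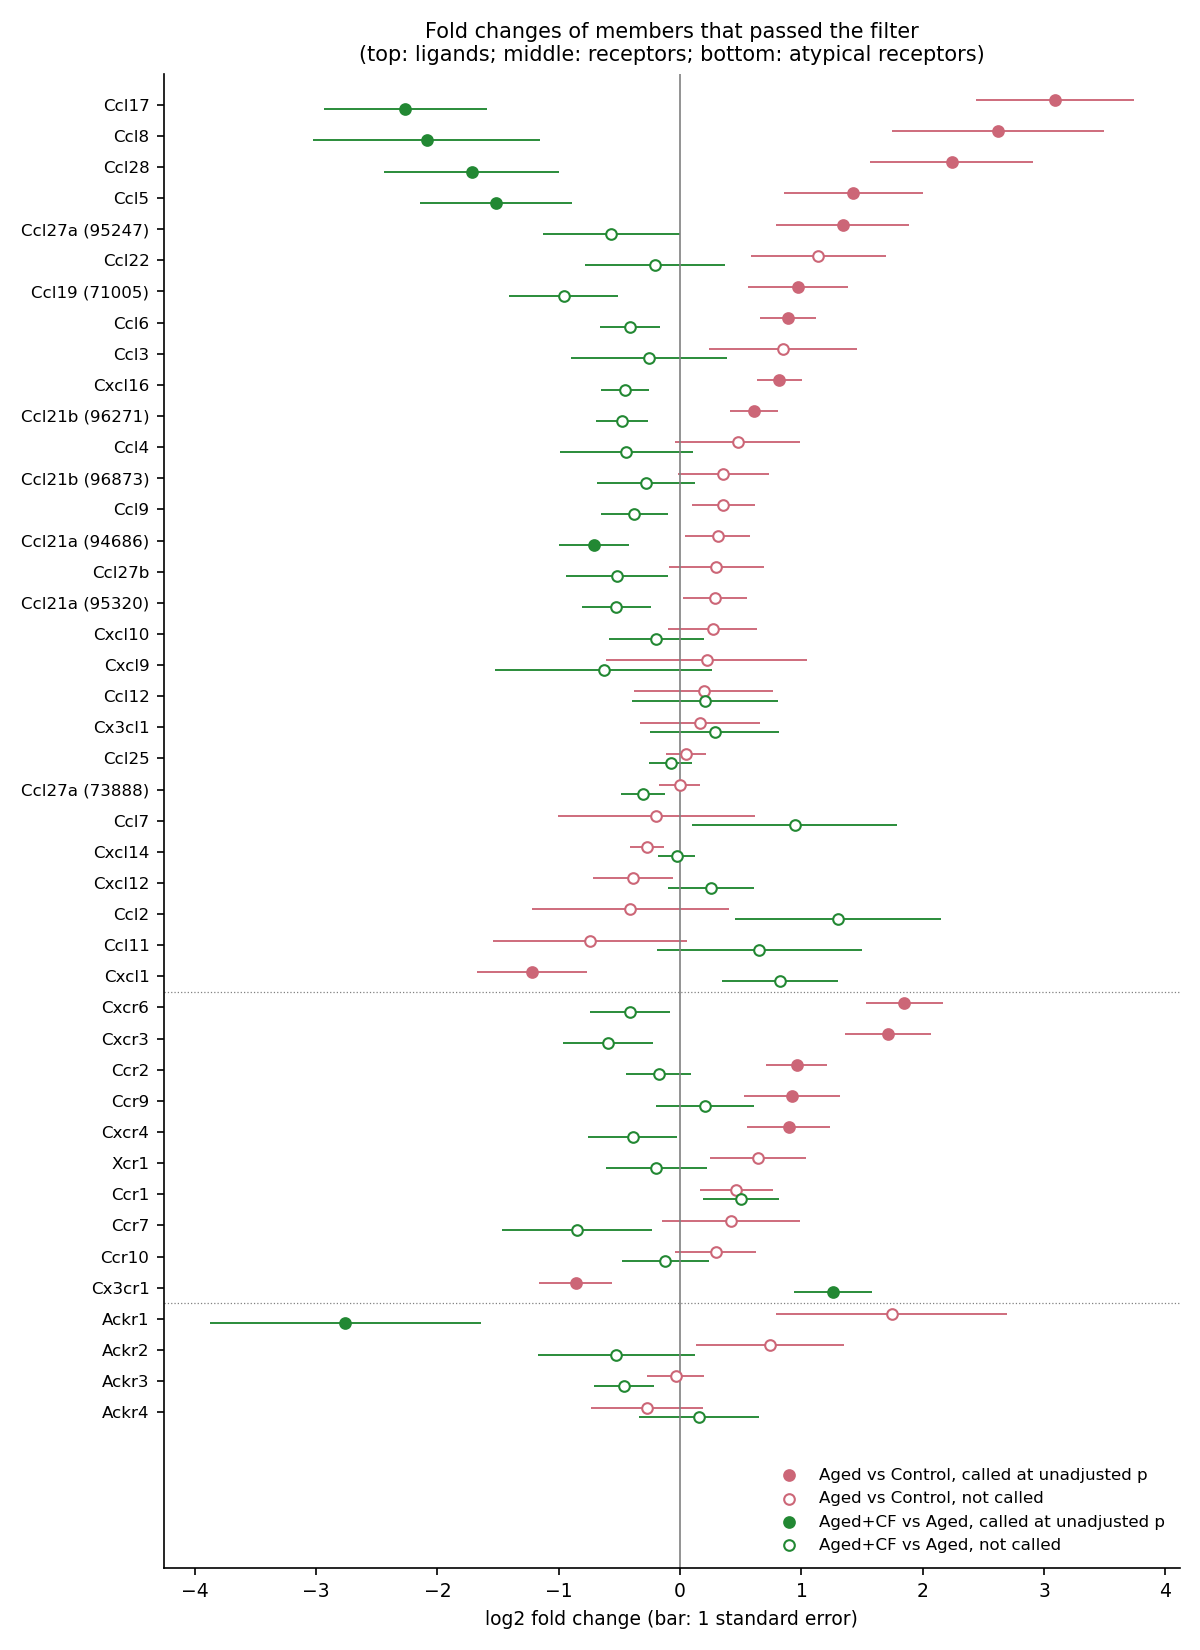
Log2 fold change with 1 standard error of members that passed the filter in Aged against Control and Aged+CF against Aged, ordered within ligands, receptors and atypical receptors by the first comparison; filled points have a fold of at least 1.5 and an unadjusted p under 0.05. Cxcr1 is left out because all Control ovaries are at 0, and both comparisons use the same 3 Aged ovaries.

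Against young ovaries, CEFFE-treated old ovaries had higher levels of several receptors and of no ligand at the unadjusted p. In Aged+CF against Control 6 of 45 members (13.3%) were called at the unadjusted p, beside 7.69% of all genes, all of them higher and all receptors: Ccr1, Ccr2, Ccr9, Cxcr1, Cxcr3 and Cxcr6. At the adjusted p edgeR called 0 members, beside 0.179% of all genes. DESeq2 called 2, Cxcr1 and Cxcr6, and its share of all genes is not given here. The log2 fold changes were 1.44 ± 0.32 for Cxcr6, 1.11 ± 0.36 for Cxcr3 and 0.78 ± 0.25 for Ccr2 (SE; adjusted p = 0.11, 0.22 and 0.22, edgeR). Ccr1, a receptor of monocytes and neutrophils for Ccl3, Ccl5 and others, had 1.69, 0.873, 1.62 and 2.12 CPM in Control 31 to 34, 1.85, 2.05 and 2.65 CPM in Aged and 3.15, 2.76 and 3.37 CPM in Aged+CF 30, 32 and 34. Its 3 Aged+CF ovaries lay above all others, with a log2 fold change of 0.97 ± 0.29 against Control (SE; adjusted p = 0.19, edgeR) and 0.50 ± 0.31 against Aged (SE; adjusted p = 0.45, edgeR). The median log2 fold change against Control was 0.64 over the 12 receptors, 0.07 over the 29 ligands and -0.03 over all genes tested.

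Between Aged and Aged+CF, Cxcr1 was the only one of these 6 receptors called at the unadjusted p, as lower in Aged+CF. The log2 fold changes of the others were 0.50 ± 0.31 for Ccr1, -0.41 ± 0.33 for Cxcr6, -0.60 ± 0.37 for Cxcr3, -0.18 ± 0.27 for Ccr2 and 0.21 ± 0.41 for Ccr9 (SE). A p that misses the threshold does not show that the groups were alike.

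A list named ligands of lymphoid tissue held the rows of Ccl19, Ccl21, Ccl25, Ccl27, Ccl28, Cxcl12 and Cxcl13, of which Ccl28 is a mucosal ligand. Of 11 tested rows, 1 was called higher in Aged against Control at the adjusted p (Ccl28), beside 5.0% of all genes, a number too small to set the group apart from that share. At the unadjusted p 4 of the 11 were higher, beside 8.79% of all genes. Ccl21 is spread over 7 rows whose genes are near-copies, listed on chromosome 4 and on separate scaffolds of GRCm38. The share of a copy in the counts is uncertain. The coding sequences of the Ccl21b row ENSMUSG00000095675 and of Ccl21d, each of 402 bases, were 99.5% identical to that of the Ccl21a row ENSMUSG00000094686, from which they differed by T84A and C194T, counted from the first coding base. Bases 169 to 218 of the 3 are given, with the base that differs in capitals, since this base sets Ccl21a apart from the other two, which are identical here and cannot be told from each other by a read of this stretch.
Ccl21a (ENSMUSG00000094686): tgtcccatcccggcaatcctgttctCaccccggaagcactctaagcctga
Ccl21b (ENSMUSG00000095675): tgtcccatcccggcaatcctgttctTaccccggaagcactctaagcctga
Ccl21d (ENSMUSG00000094065): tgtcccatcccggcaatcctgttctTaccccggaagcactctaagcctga
Summed over its 7 rows, Ccl21 had 86.7, 103, 91.4 and 101 CPM in Control 31 to 34, 101, 114 and 183 CPM in Aged 31, 33 and 34 and 85.9, 73.7 and 121 CPM in Aged+CF 30, 32 and 34. Aged 34 was the highest and the other Aged ovaries lay at or just above the upper Control values. With the rows summed before the fit, the log2 fold change was 0.48 in Aged against Control (adjusted p = 0.17, edgeR) and -0.51 in Aged+CF against Aged (adjusted p = 0.32, edgeR), so no difference was shown for the family. As single rows, ENSMUSG00000096271 gave 0.61 ± 0.20 (SE; adjusted p = 0.066, edgeR) in the first comparison and ENSMUSG00000094686 gave -0.71 ± 0.29 (SE; adjusted p = 0.27, edgeR) in the second.

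Ccl19, the other ligand of Ccr7, had 0.686 to 0.913 CPM in Control, 0.954, 0.988 and 2.7 CPM in Aged 31, 33 and 34 and 0.516 to 0.976 CPM in Aged+CF, with a log2 fold change of 0.97 ± 0.41 in Aged against Control (SE; adjusted p = 0.14, edgeR) and one of 0.33 without Aged 34. Ccr7 itself had 0.203 to 1.34 CPM in Control and 0.494 to 1.27 CPM in Aged and did not pass the test, with a log2 fold change of 0.42 ± 0.57 (SE). The Ccl27a row ENSMUSG00000095247 gave 1.34 ± 0.55 (SE; adjusted p = 0.12, edgeR), but all Ccl27 rows summed gave 0.10 (adjusted p = 0.74, edgeR). Ccr10, the receptor of Ccl27 and Ccl28, had 1.93 to 2.97 CPM in Control and 1.97 to 4.19 CPM in Aged, with a log2 fold change of 0.29 ± 0.34 (SE). Cxcl14 gave -0.27 ± 0.14 in Aged against Control and -0.03 ± 0.15 in Aged+CF against Aged (SE), with 196 ± 19.97 CPM in Control (SD, n = 4), 162 ± 24.7 CPM in Aged and 159 ± 24.2 CPM in Aged+CF (SD, n = 3 each).

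**Figure D5:**
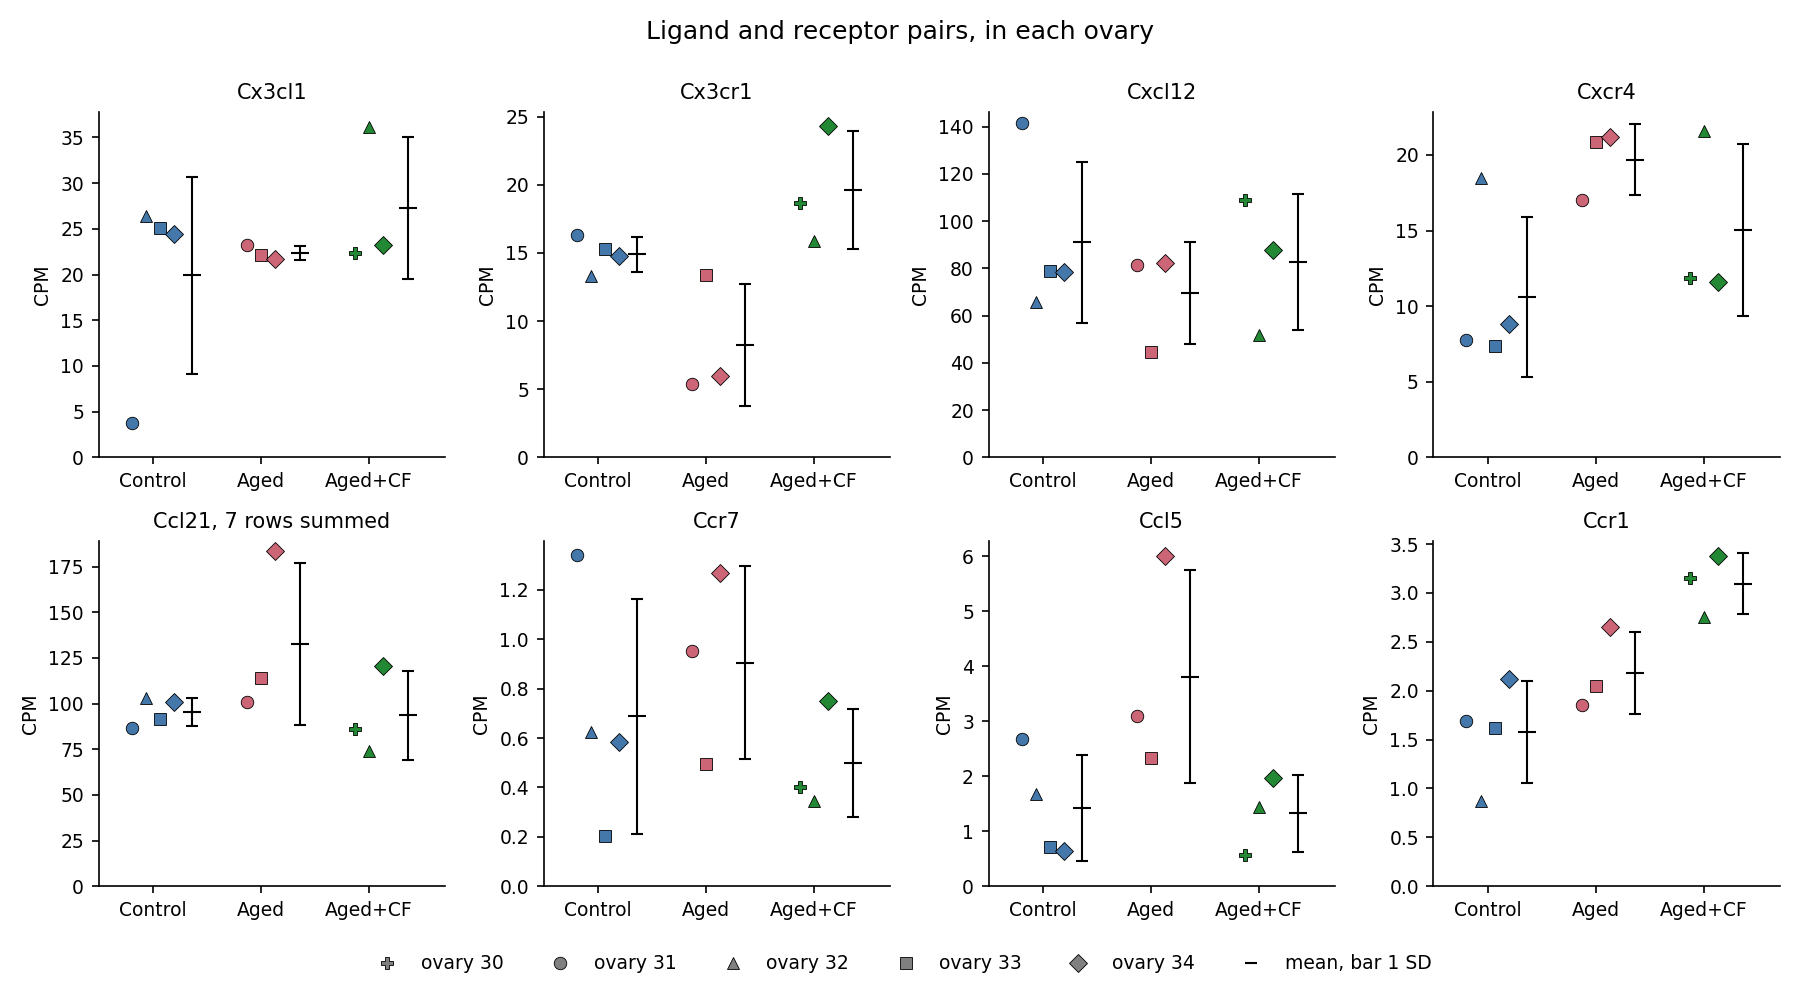
CPM in each ovary of ligands (Cx3cl1, Cxcl12, Ccl21 as the sum of 7 rows, and Ccl5), each beside a receptor of it (Cx3cr1, Cxcr4, Ccr7 and Ccr1), with the mean and 1 SD (Control n = 4, Aged n = 3, Aged+CF n = 3). Cx3cr1 is lowest in Aged 31 and 34, at 5.37 and 5.96 CPM, and Cx3cl1 is low in Control 31 alone, at 3.79 CPM.

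Of the remaining pair, Xcr1, the receptor of cross-presenting dendritic cells, had 0.689 to 1.28 CPM in Control, 0.847 to 2.21 CPM in Aged and 0.975 to 1.55 CPM in Aged+CF, and did not pass the test in any comparison. Its ligand Xcl1 had 61 counts over the 10 ovaries and was not tested. Of the atypical receptors, Ackr2, a scavenger of inflammatory CC ligands, gave a log2 fold change of 0.74 ± 0.61 in Aged against Control (SE; adjusted p = 0.44, edgeR). Ackr4, which scavenges Ccl19, Ccl21 and Ccl25, gave -0.27 ± 0.46 (SE; adjusted p = 0.74, edgeR).

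A list of 40 other genes around chemokine action held mostly proteins that carry the signal from the receptor to the cell skeleton and to integrins. It also held ligands under other symbols (Pf4, Ppbp and Mif), the receptors Ccrl2 and Cmklr1 and the proteases Dpp4 and Mmp9. Of the 40, 38 were tested. In Aged against Control 6 were called higher at the adjusted p, beside 5.0% of all genes, and 1 lower, beside 6.06%. Higher were among others Itgb2, the shared chain of the leukocyte integrins, with a log2 fold change of 1.71 (15.8 CPM on average in Control, 51.8 CPM in Aged) and Cd74, the MHC class II chaperone and receptor of Mif, with 1.31. The one lower gene was Rgs2, a brake on G protein signals that many cell types make, which fell by 1.52 on the log2 scale from 337 CPM in Control. In Aged+CF against Aged, 0 of the 38 were called at the adjusted p by edgeR, and at the unadjusted p 3 of the 38 were, a share near the 7.96% of all genes, with log2 fold changes of -1.51 for Plcb2, -0.75 for Rac2 and 0.70 for Rgs2, named after their values were seen.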

How the data were processed

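Libraries were made from total RNA of whole ovaries. The submitters' processing notes name TopHat, Cufflinks 2.1.1 and the genome build GRCm38.p4, and the counter, its handling of strand and of reads shared by copies are not given in the sources used here. Per the file headers, the authors deposited raw counts per gene and FPKM values, which are scaled by gene length and library size, for each ovary. The values of both kinds implied the same gene length in all ovaries (within 0.1%) for all 32782 genes with counts in 2 or more ovaries. FPKM served only for levels between genes.

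The counts of all 10 ovaries were filtered with filterByExpr and fitted together in edgeR 4.0 (R 4.3) with TMM factors and group means, and tested with the quasi-likelihood F test with Benjamini-Hochberg adjustment over the 18956 genes tested. A call needed a fold of at least 1.5 and a p under 0.05, adjusted or unadjusted as stated. The fit was tested on simulated data. Standard errors were derived from the F statistic. CPM used the TMM-scaled library size. DESeq2 1.42, DESeq2 size factors in edgeR, no filter, only the groups compared, a replicate block, each ovary left out and near-copies summed were alternatives, the last chosen after seeing the data. Depth was 15761789 to 21318254 counts.

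The labels name the ovaries as separate samples but not their animals, so p-values measure the spread between these samples. Ovaries that bear the same number come from groups of different mice. The members and all lists were chosen with earlier results of these data known. Members named are those called in any comparison, the 5 ligands and the 5 receptors highest in mean FPKM, set ligand and receptor pairs and Ackr1 to Ackr4. Ccl7 and Ccl12 were added as ligands of Ccr2 after their values were seen. Positions come from GENCODE M21 on GRCm38, in which all 68 members were found, and promoters from RefSeq on GRCm38.p6. Some genes of the lists are not reported here.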

Additional observations from a re-analysis of the deposited data

Results flagged for a closer look

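In 9 of 44 members tested (20.5%), 1 Control ovary stood far from the other 3, by the gap to its nearest neighbour divided by the range of the group. For normally distributed values, chance flags about 1 in 20 such groups. CPM from low counts need not be so distributed, and the share over all genes was not computed. Only Control has enough ovaries for this rule. Control 31 was apart in Cx3cl1 (3.79 CPM, the nearest at 24.4 CPM, gap ratio 0.914), Cxcl9 (7.18 CPM, nearest 1.37 CPM, ratio 0.917), Ccl22 (1.46 CPM, nearest 0.561 CPM, ratio 0.868) and Ccl17 (0.0584 CPM, which is 1 count, nearest 0.312 CPM, ratio 0.854). Control 32 was apart in Cxcr4 (18.5 CPM, nearest 8.80 CPM, ratio 0.870) and in the Ccl27a row ENSMUSG00000095247 (1.06 CPM, nearest 0.350 CPM, ratio 0.880). Control 33 was apart in Ccl28 (3.80 CPM, nearest 0.795 CPM, ratio 0.928) and Ccl27b (0.71 CPM, nearest 0.584 CPM, ratio 0.849). Control 34 was apart in the Ccl21a row ENSMUSG00000094686 (6.20 CPM, nearest 5.02 CPM, ratio 0.883).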

How the results depend on the processing

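At the adjusted p, 8 members were called in Aged against Control, against 14 by the DESeq2 Wald test, 5 with only the compared groups in the fit and 5 to 11 when single ovaries were left out (5 without Control 31, Control 34 or Aged 34). Cxcr3 and Cxcr6 passed in all 10 of those fits, as did Cxcr1 and Ccl17, which reach the filter's level only through the Aged ovaries. What the numbers in the labels mean is not stated, and they were not treated as pairing. Deviations of equally numbered ovaries correlated between -0.185 and 0.153. Control 31, Control 34, Aged 31 and Aged+CF 34 correlated best with an ovary of their own number. Control 32, Control 33, Aged 33, Aged 34 and Aged+CF 32 did not. With so few ovaries in a group this check cannot decide whether the numbers mark a shared batch. With a replicate block on these numbers, 1 member (Cxcr4) was called. At the unadjusted p, 17 members became 10 to 19 with ovaries left out (10 without Aged 34). For the 8 members called in Aged+CF against Aged at the unadjusted p, the replicate block gave 3, only the compared groups 5, and leaving out ovaries 4 to 13 (13 without Aged 31, 5 without Aged 34, 4 without Aged+CF 32). At the adjusted p, 0 became 1 by DESeq2 and 0 to 1 with ovaries left out, the 1 being Cx3cr1 without Aged 33 and Ccl17 without Aged 34. In Aged+CF against Control, 0 became 2 by DESeq2, 1 with only the compared groups and 0 to 1 with ovaries left out (Cxcr6 without Aged 34). With single ovaries left out, the log2 fold change in Aged+CF against Aged ran from -3.28 to 0.18 for Ackr1 and from -2.61 to 0.27 for Ccl8, above 0 only without Aged 34. The cause of these changes was not tested. Here and above, counts of members under other settings stand without the share of all genes called in the same fits. A change in them therefore cannot be told from a change in calls among all genes. No low-count filter gave 8 and 11 calls in the first 2 comparisons, and copies summed 8 and 7. Members under about 100 counts in all, such as Cxcr1 with 61, are limited by depth.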
